A study of Mus musculus with 18 samples.

Results

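The stanniocalcins Stc1 and Stc2, the metalloprotease gene Pappa, 6 IGF-binding protein genes (Igfbp2 to Igfbp7) and the IGF receptor gene Igf1r were described in mouse cells that received siRNA against CYP1B1 and 1 of 2 estrogens. They were taken by symbol from the authors' expression table and make up 10 of its 15288 genes. The set was chosen by earlier CPM differences in these data, in which Stc2 stood out with the siRNA in vehicle and with E2 in scrambled cells, and Igfbp5 stood out with the siRNA under both estrogens. In the comparisons that share those groups, values of Stc2 and Igfbp5 are a description with no test. Of the 10 genes, 9 had a mean of at least 1 CPM (counts scaled to a common library total) over the 18 libraries and were tested. Stc1 did not reach that level.

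RNA was sequenced from cells labelled as pulmonary microvascular endothelial cells, transfected with siRNA against CYP1B1 (siCYP1B1), a cytochrome P450 that metabolizes estradiol, or with scrambled siRNA. From 24 hours after transfection the cells received 1 uM 16aOHE (16-alpha-hydroxyestrone, an estrogen metabolite), 1 uM E2 (estradiol) or vehicle for 24 hours in 5% serum. This gave 6 groups of 3 libraries, siCYP1B1 with 16aOHE, siCYP1B1 with E2, siCYP1B1 with vehicle, scrambled with 16aOHE, scrambled with E2 and scrambled with vehicle. The labels do not tie the 3 libraries of a group to separate cultures, and the p-values then reflect the spread among these samples alone, part or all of which can be technical. All 6 groups were transfected, so that an effect of transfection itself cannot be told apart from the culture conditions. The labels name neither strain nor passage of the cells.

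Insulin-like growth factors (IGFs) act through the receptor tyrosine kinase encoded by Igf1r, and most extracellular IGF is held by IGF-binding proteins. The metalloprotease PAPP-A, the product of Pappa, cleaves IGFBP4 and IGFBP5 and so releases IGF near the receptor. Stanniocalcins are secreted glycoproteins that bind PAPP-A and block its activity, which has been worked out mostly with human proteins. Cells of the vessel wall secrete several of these proteins, and IGF signalling is known there for its part in growth and survival.

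At the depth estimated from the spacing of low values, 1 CPM stood for 14.1 to 38.5 reads per library. Cyp1b1, the targeted gene, fell little with siCYP1B1. It averaged 81.5 CPM with siCYP1B1 and 92.2 CPM with scrambled siRNA in vehicle, and fell by 11.7% there, by 12.7% in E2 and by 15.2% in 16aOHE (averaged log2 difference -0.20, SE 0.0199, adjusted p = 5.83e-08). Of 9 endothelial markers listed, 6 were in the authors' table and Cdh5, Emcn and Cldn5 were not, and those present were split. Pecam1 averaged 0.0481 CPM, Vwf 0.0305 CPM and Tek 0.824 CPM over the 18 libraries, while Cd34 averaged 107 CPM, Flt1 70.0 CPM and Kdr 4.37 CPM. Of the mesothelial and epithelial markers, Msln averaged 1521 CPM, Upk3b 825 CPM, Krt19 434 CPM and Wt1 256 CPM. The others on that list were low, with Krt18 at 3.87 CPM, Cdh1 at 3.09 CPM, Krt8 at 0.522 CPM and Epcam at 0.343 CPM. Of the fibroblast and pericyte markers, the collagen genes Col3a1 and Col1a1 averaged 2488 and 1946 CPM, and Dcn 309 CPM. The others there were lower, among them Pdgfra at 3.31 CPM, Cspg4 at 0.217 CPM and Rgs5 at 0.0610 CPM. The series title speaks of smooth muscle cells, and of those markers Acta2 averaged 20.5 CPM and Myh11 0.0764 CPM.

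Stc2 stood higher and Igfbp5 lower in the siCYP1B1 groups, while Pappa fell with E2 and did not pass the test with 16aOHE. Averaged over the treatments, Pappa was also lower with siCYP1B1. Igfbp4 fell with siCYP1B1 and with each estrogen, and Igfbp6 fell with each estrogen. With 16aOHE, the calls of Igfbp6 and that of Igfbp4 in scrambled cells were lost when some single libraries were left out. Igf1r, Igfbp3 and Igfbp7 varied little. Levels are given in CPM and differences as log2 of CPM plus 1, which understates differences of genes near 1 CPM, from a limma fit over all 18 libraries with p-values adjusted over 11835 genes. In RNA from whole cultures, fewer cells of a type and less RNA per cell cannot be told apart.

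**Figure D1:**
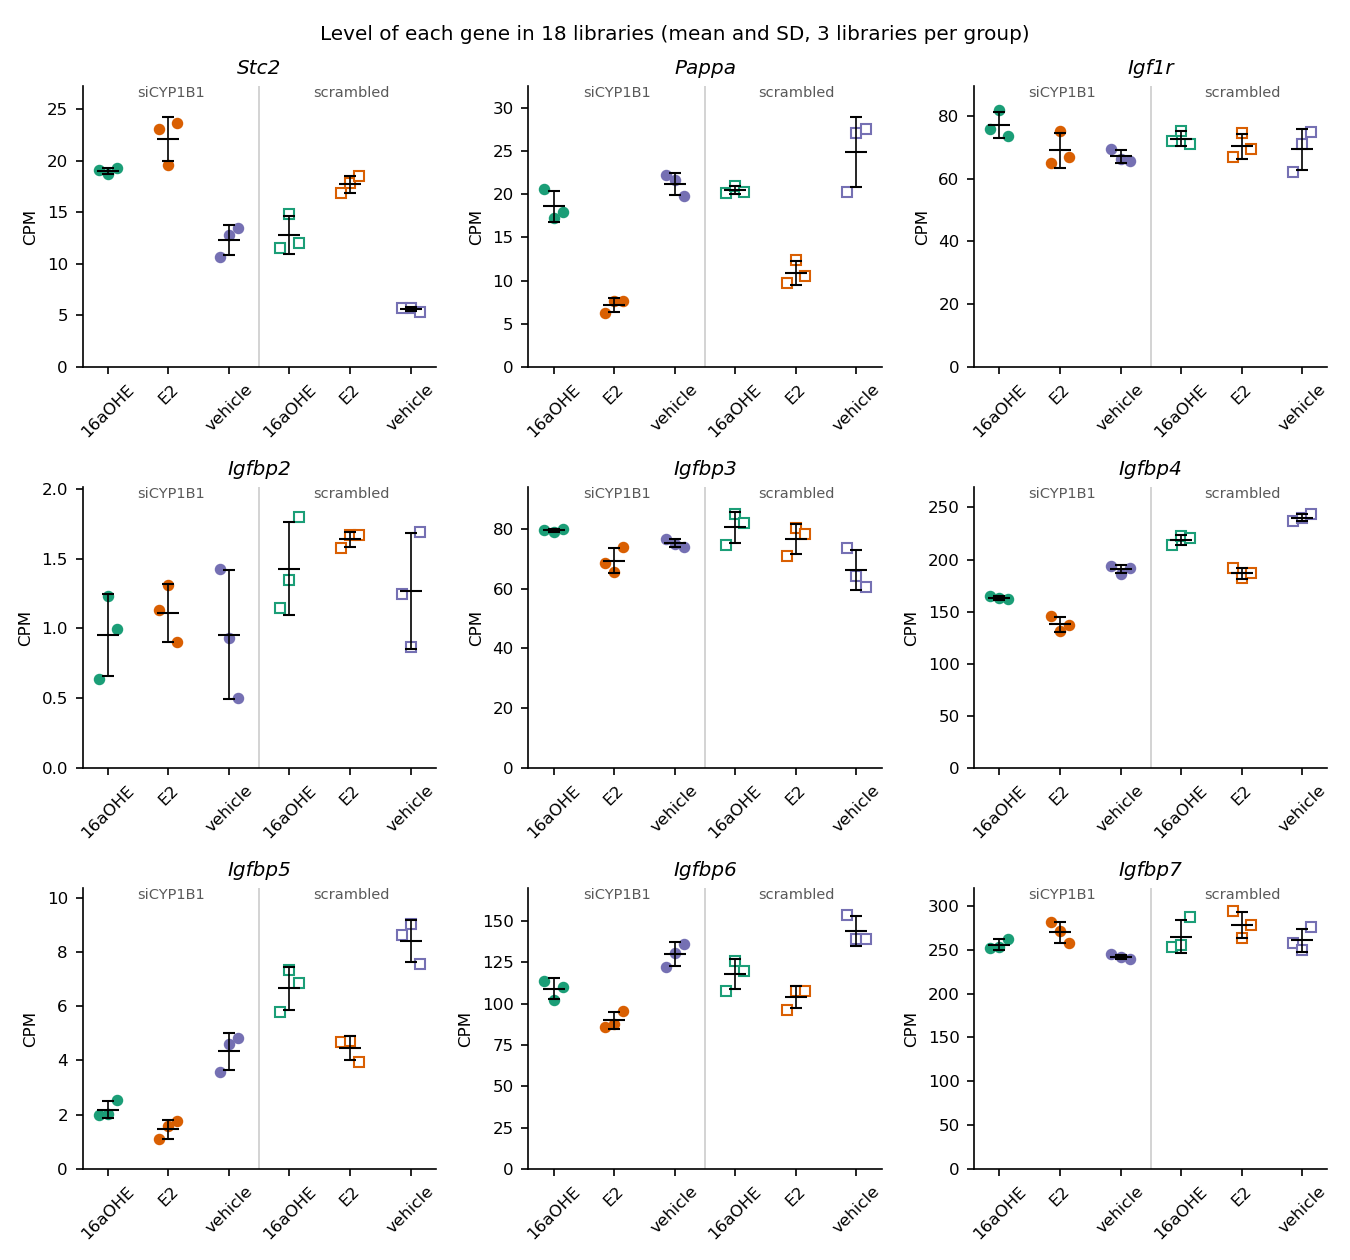
Level of each of the 9 tested genes in CPM (vertical axes, starting at 0, on a scale of their own) in the 3 siCYP1B1 groups (filled circles) and the 3 scrambled groups (open squares). Each point is 1 library, and bars give the mean and SD of 3. Stc2 is lowest in scrambled vehicle, Pappa is lowest in both E2 groups, Igfbp4 and Igfbp5 are lower with siCYP1B1 under each treatment, and Igf1r and Igfbp7 stay within narrow ranges.

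Of the stanniocalcins, Stc2 was the one that reached the level for testing. It had 3.79 CPM per kilobase of transcript on average, against 0.0228 CPM per kilobase for Stc1. Stc1 (chromosome 14, 69029289 to 69041401, mm10) was listed at 0 in 3 of 18 libraries and reached 0.216 CPM at most, where 3 reads stood for 0.0780 to 0.213 CPM. Its group means of 0.0237 to 0.134 CPM therefore rest on a handful of reads, and no comparison was made. Stc1 overlaps the antisense gene Gm41192 by 229 exonic bases, and no label says whether counting used strand.

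Stc2 (chromosome 11, 31359441 to 31370061, minus strand, mm10) had 19.1, 18.7 and 19.3 CPM with 16aOHE, 23.1, 19.6 and 23.6 CPM with E2 and 10.7, 12.8 and 13.5 CPM with vehicle in the siCYP1B1 libraries. In the scrambled libraries it had 11.5, 14.8 and 12.0 CPM with 16aOHE, 16.9, 17.8 and 18.5 CPM with E2 and 5.75, 5.71 and 5.35 CPM with vehicle. Ordered by their means, siCYP1B1 E2 was highest, followed by siCYP1B1 16aOHE, scrambled E2, scrambled 16aOHE, siCYP1B1 vehicle and scrambled vehicle. Of these neighbours, scrambled 16aOHE and siCYP1B1 vehicle overlapped and the others did not. Cells with siCYP1B1 and vehicle thus held about the level of scrambled cells with 16aOHE. Although siCYP1B1 E2 and siCYP1B1 16aOHE lay apart, Stc2 did not pass the test of 16aOHE against E2 in siCYP1B1 cells. The log2 difference there was -0.20 (SE 0.0952, adjusted p = 0.148), and it passed under none of 14 alternatives.

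The siRNA difference in Stc2 was tested in 16aOHE, where it passed. Stc2 averaged 19.0 ± 0.310 CPM with siCYP1B1 and 12.8 ± 1.81 CPM with scrambled siRNA there (SD, n = 3 each). The log2 difference was 0.55 (95% interval 0.35 to 0.75, SE 0.0952, adjusted p = 0.000340). As a description, the same difference was 1.01 in vehicle (12.3 ± 1.50 CPM with siCYP1B1 and 5.60 ± 0.222 CPM with scrambled siRNA) and 0.30 in E2 (22.1 ± 2.16 CPM with siCYP1B1 and 17.7 ± 0.818 CPM with scrambled siRNA). The difference in vehicle amounted to 2.20-fold, and in E2 to 1.25-fold.

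Both estrogens went with more Stc2 in either siRNA, given here without a test. E2 stood 9.77 CPM above vehicle in siCYP1B1 cells (SE 1.52, 1.79-fold) and 12.1 CPM above it in scrambled cells (SE 0.489, 3.16-fold). 16aOHE stood 6.69 CPM above vehicle in siCYP1B1 cells (SE 0.885, 1.54-fold) and 7.16 CPM above it in scrambled cells (SE 1.05, 2.28-fold). The CPM added by an estrogen was therefore closer between the siRNAs than the fold, because siCYP1B1 cells began from a higher vehicle level. On the log2 scale the difference between siCYP1B1 and scrambled in the estrogen effect was -0.71 for E2 (SE 0.135) and -0.46 for 16aOHE (SE 0.135). With a pseudocount of 5 these were -0.45 and -0.27. Both include groups on which Stc2 was chosen, so they are a description and show no difference beyond that choice. Of the members open to a test of this kind, which leaves out Stc2, none passed for either estrogen.

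Pappa, the protease of the axis (chromosome 4, 65124174 to 65357509, mm10), was lowest in both E2 groups. In siCYP1B1 libraries it had 20.6, 17.3 and 17.9 CPM with 16aOHE, 6.21, 7.61 and 7.61 CPM with E2 and 22.2, 21.6 and 19.8 CPM with vehicle. In scrambled libraries it had 20.1, 21.0 and 20.2 CPM with 16aOHE, 9.69, 12.4 and 10.5 CPM with E2 and 20.2, 27.1 and 27.5 CPM with vehicle. The E2 groups lay apart from each other and below the other 4 groups, whose neighbours in the order of means overlapped.

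Pappa fell with E2 by 14.1 CPM in either siRNA (SE 0.855 in siCYP1B1 cells and 2.48 in scrambled cells). E2 left 7.14 ± 0.809 CPM against 21.2 ± 1.24 CPM with vehicle in siCYP1B1 cells, a fall by 66.3%. In scrambled cells it left 10.9 ± 1.38 CPM against 24.9 ± 4.08 CPM with vehicle, a fall by 56.5%. The log2 differences were -1.45 (SE 0.107, adjusted p = 3.91e-09) with siCYP1B1 and -1.12 (adjusted p = 1.45e-07) with scrambled siRNA. The test of whether the E2 effect differed between the siRNAs was not passed (-0.33, 95% interval -0.64 to -0.01, adjusted p = 0.998, and -0.20 with a pseudocount of 5).

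With 16aOHE, Pappa did not pass against vehicle in siCYP1B1 cells (-0.18, 95% interval -0.41 to 0.04, adjusted p = 0.370) or in scrambled cells (-0.26, -0.48 to -0.04, adjusted p = 0.231). The scrambled result turned on the library scrambled vehicle 1, which had the lowest level of its group. Without it, the difference in scrambled cells was -0.40 (adjusted p = 0.0395, and 0.0395 to 0.535 over all alternatives), and that between siCYP1B1 and scrambled in vehicle went to -0.35 (adjusted p = 0.0211, and 0.0211 to 0.48 over all alternatives), where all libraries gave -0.21 (adjusted p = 0.174). At the same dose and time, Pappa was 2.60-fold higher with 16aOHE than with E2 in siCYP1B1 cells (log2 1.27, adjusted p = 7.75e-08) and 1.88-fold higher in scrambled cells (0.86, adjusted p = 1.19e-05). With siCYP1B1, Pappa was lower than with scrambled siRNA in E2 (-0.54, SE 0.107, adjusted p = 0.00107), and it did not pass in 16aOHE (-0.14, adjusted p = 0.416). Averaged over the arms, the siRNA difference in Pappa was -0.30 (SE 0.0619, adjusted p = 0.000556), and it passed under all 25 alternatives.

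Set side by side per kilobase of the longest annotated coding transcript, Stc2 and Pappa changed places between groups. The ratio of Stc2 to Pappa, in CPM per kilobase, averaged 2.89 (2.59 to 3.04) in siCYP1B1 16aOHE, 8.77 (7.22 to 10.4) in siCYP1B1 E2 and 1.64 (1.34 to 1.91) in siCYP1B1 vehicle. In the scrambled groups it averaged 1.75 (1.60 to 1.98) with 16aOHE, 4.61 (4.03 to 4.93) with E2 and 0.644 (0.545 to 0.796) with vehicle. Per kilobase, scrambled vehicle was the group in which Pappa exceeded Stc2 in every library, and in the other 5 groups Stc2 exceeded Pappa in every library. Where they crossed rests on the lengths used. In CPM, Pappa also averaged above Stc2 in siCYP1B1 vehicle (21.2 against 12.3) and in scrambled 16aOHE (20.5 against 12.8). In siCYP1B1 16aOHE, Pappa averaged 18.6 CPM and Stc2 19.0 CPM. In both E2 groups, in scrambled vehicle and in siCYP1B1 16aOHE the order of the means was the same on either scale. In the library siCYP1B1 16aOHE 1, however, Pappa exceeded Stc2 in CPM (20.6 against 19.1). The ratio is a description, since Stc2 was chosen for its differences between these groups, and the lengths are from GENCODE, since no label names the authors' transcript models.

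**Figure D2:**
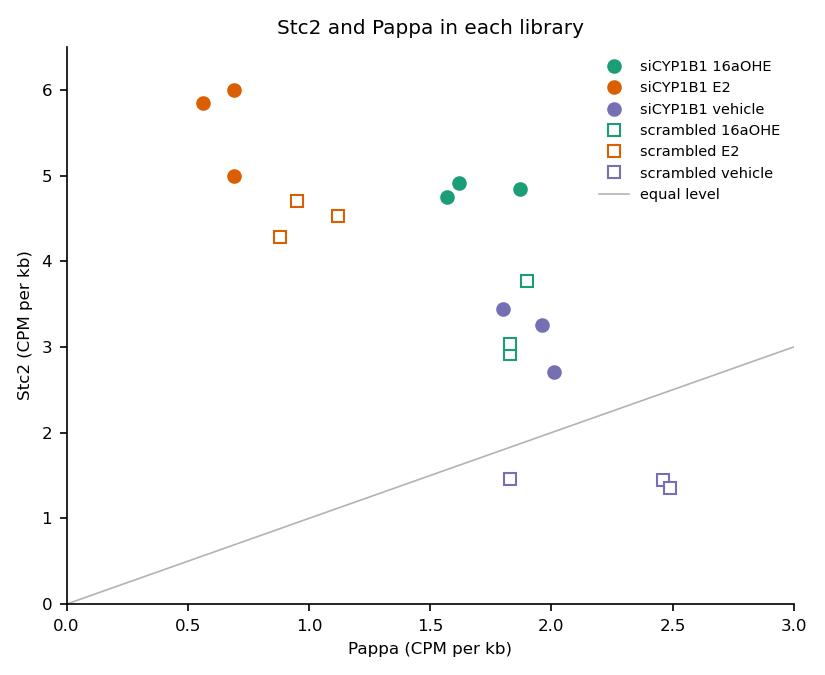
Stc2 (vertical axis) against Pappa (horizontal axis), both in CPM per kilobase of transcript, with 1 point per library, filled for siCYP1B1 and open for scrambled siRNA. The grey line marks equal levels. The 3 scrambled vehicle libraries lie below it, and the E2 libraries lie at the upper left, with Pappa between 0.563 and 1.12 CPM per kilobase.

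Igfbp4, whose product is the best known substrate of PAPP-A, fell with siCYP1B1 under every treatment and with both estrogens (chromosome 11, 99041260 to 99052643, mm10). It had 165, 163 and 162 CPM with 16aOHE, 146, 131 and 137 CPM with E2 and 194, 186 and 192 CPM with vehicle in siCYP1B1 libraries. In scrambled libraries it had 214, 223 and 221 CPM with 16aOHE, 192, 182 and 187 CPM with E2 and 237, 240 and 244 CPM with vehicle. Only siCYP1B1 vehicle and scrambled E2 overlapped among neighbours in the order of means.

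The siRNA differences in Igfbp4 were -0.42 in 16aOHE (SE 0.0366, adjusted p = 4.73e-08), -0.44 in E2 (adjusted p = 2.30e-08) and -0.33 in vehicle (adjusted p = 1.57e-06). Igfbp4 fell by 25.6%, 26.4% and 20.6% in those 3 arms. With E2 it fell by 53.1 CPM in siCYP1B1 cells (log2 -0.47, adjusted p = 8.13e-09) and fell by 53.2 CPM in scrambled cells (-0.36, adjusted p = 3.39e-07). With 16aOHE it fell by 27.8 CPM in siCYP1B1 cells (-0.23, adjusted p = 0.000659). In scrambled cells it fell by 21.1 CPM with 16aOHE (-0.13, adjusted p = 0.0451). This call was lost without any 1 of the 6 libraries of that comparison (adjusted p 0.0750 to 0.190) and with no filter on low values (0.0509). Against E2, 16aOHE left Igfbp4 higher in siCYP1B1 cells (0.24, adjusted p = 8.52e-05) and in scrambled cells (0.23, adjusted p = 0.000185).

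Igfbp5, a matrix-associated binding protein that PAPP-A also cleaves, had group means that spanned 1.93 on the log2 scale, beside 1.80 for Stc2 and 1.66 for Pappa (chromosome 1, 72858065 to 72874865, minus strand, mm10). It had 1.99, 2.03 and 2.55 CPM with 16aOHE, 1.09, 1.57 and 1.76 CPM with E2 and 3.57, 4.62 and 4.81 CPM with vehicle in siCYP1B1 libraries. In scrambled libraries it had 5.80, 7.33 and 6.84 CPM with 16aOHE, 4.69, 4.72 and 3.94 CPM with E2 and 8.63, 9.04 and 7.54 CPM with vehicle. Scrambled E2 and siCYP1B1 vehicle overlapped, and all other neighbours in the order of means lay apart.

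In vehicle, the comparison open to a test, Igfbp5 fell to 4.33 ± 0.667 CPM with siCYP1B1 against 8.41 ± 0.774 CPM with scrambled siRNA (log2 -0.82, 95% interval -1.10 to -0.55, adjusted p = 0.000125). As a description, the siRNA difference was -1.15 in E2 (1.47 ± 0.348 CPM with siCYP1B1 and 4.45 ± 0.443 CPM with scrambled siRNA). In 16aOHE it was -1.26 (2.19 ± 0.311 CPM with siCYP1B1 and 6.66 ± 0.783 CPM with scrambled siRNA). The difference of E2 from vehicle was -2.86 CPM in siCYP1B1 cells and -3.95 CPM in scrambled cells, and that of 16aOHE was -2.14 CPM in siCYP1B1 cells and -1.75 CPM in scrambled cells. The size of these log2 differences rests on the pseudocount at so low a level. The siRNA difference was -1.55 in E2 and -0.95 in vehicle with a pseudocount of 0.1, and -0.55 and -0.52 with one of 5. The span was 2.45 with a pseudocount of 0.1 and 1.05 with one of 5, where Stc2 (1.35) and Pappa (1.29) spanned more.

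Igfbp6, a binding protein with a preference for IGF2, fell with both estrogens (chromosome 15, 102144186 to 102149512, mm10). It had 114, 102 and 110 CPM with 16aOHE, 86.2, 87.8 and 95.6 CPM with E2 and 122, 131 and 136 CPM with vehicle in siCYP1B1 libraries. In scrambled libraries it had 108, 126 and 120 CPM with 16aOHE, 96.3, 108 and 108 CPM with E2 and 154, 139 and 139 CPM with vehicle. The E2 libraries lay below the vehicle libraries of the same siRNA without overlap.

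E2 lowered Igfbp6 by 30.6% in siCYP1B1 cells (log2 -0.52, SE 0.0627, adjusted p = 2.94e-06) and by 27.7% in scrambled cells (-0.46, adjusted p = 1.14e-05). 16aOHE lowered it by 16.2% in siCYP1B1 cells (-0.25, adjusted p = 0.0193) and by 18.1% in scrambled cells (-0.29, adjusted p = 0.00953). The 16aOHE calls were lost without siCYP1B1 16aOHE 2, siCYP1B1 vehicle 2 or siCYP1B1 vehicle 3 (adjusted p = 0.119, 0.0733 and 0.109). In scrambled cells they were lost without scrambled 16aOHE 1 or scrambled vehicle 1 (adjusted p = 0.0802 and 0.0728). With siCYP1B1, Igfbp6 was lower by 0.16 averaged over the 3 arms (SE 0.0362, adjusted p = 0.00120). Within arms the siRNA difference passed in E2 (-0.21, adjusted p = 0.0209), and that call was lost without siCYP1B1 E2 1, siCYP1B1 E2 2, scrambled E2 2 or scrambled E2 3 (adjusted p 0.0729 to 0.0882). In vehicle it was -0.15 (95% interval -0.28 to -0.02, adjusted p = 0.0946, and 0.0346 to 0.323 over all alternatives), and passed with median-of-ratios factors (0.0497) and with only its own groups fitted (0.0346). 16aOHE against E2 passed in siCYP1B1 cells (0.27, adjusted p = 0.00475) and not in scrambled cells (0.18, 95% interval 0.05 to 0.31, adjusted p = 0.0538). The scrambled difference passed with median-of-ratios factors, with quantile normalization and without scrambled 16aOHE 1 (adjusted p = 0.0220, 0.0330 and 0.0190).

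Stc2, Igfbp4, Igfbp5 and Igfbp6 were the genes, beside Pappa, whose group means spanned more than 0.5 on the log2 scale at a pseudocount of 1, and their promoters are shown because 3 of them were lower with E2 while Stc2 was higher. RefSeq promoter windows on GRCm38.p6 were matched by symbol for 8 of the 10 genes, the exceptions being Stc1 and Pappa. Each line holds the 250 bases before the RefSeq start, read 5′ to 3′ on the gene's strand, with capitals for matches to the motifs named after it.
Stc2, chr11:31370062-31370311, minus strand: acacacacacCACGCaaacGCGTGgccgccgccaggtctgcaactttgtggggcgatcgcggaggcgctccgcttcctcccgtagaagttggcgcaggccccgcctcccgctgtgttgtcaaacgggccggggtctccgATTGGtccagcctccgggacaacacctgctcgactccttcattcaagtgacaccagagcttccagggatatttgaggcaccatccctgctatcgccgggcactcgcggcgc
Igfbp4, chr11:99040994-99041243, plus strand: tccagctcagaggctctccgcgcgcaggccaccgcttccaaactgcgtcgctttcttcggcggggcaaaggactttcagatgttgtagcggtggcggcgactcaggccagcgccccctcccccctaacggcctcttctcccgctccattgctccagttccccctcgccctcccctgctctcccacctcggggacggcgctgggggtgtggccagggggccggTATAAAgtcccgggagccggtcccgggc
Igfbp5, chr1:72874866-72875115, minus strand: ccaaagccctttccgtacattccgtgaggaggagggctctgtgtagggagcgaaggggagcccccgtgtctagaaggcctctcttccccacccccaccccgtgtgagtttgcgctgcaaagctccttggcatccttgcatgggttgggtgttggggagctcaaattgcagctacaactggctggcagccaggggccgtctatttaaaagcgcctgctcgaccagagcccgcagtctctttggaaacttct
Igfbp6, chr15:102143936-102144185, plus strand: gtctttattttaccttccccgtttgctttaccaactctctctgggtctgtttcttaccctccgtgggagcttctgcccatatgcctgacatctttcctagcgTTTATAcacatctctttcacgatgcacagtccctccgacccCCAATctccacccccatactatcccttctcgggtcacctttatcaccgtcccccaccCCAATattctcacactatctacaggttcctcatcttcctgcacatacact
The capitals mark the box TATAAA, the box CCAAT, the GC-rich box GGGCGG, the estrogen receptor half-site AGGTCA, the estrogen response element GGTCANNNTGACC, the hypoxia response core ACGTG, the aryl hydrocarbon receptor core GCGTG and the C/EBP-ATF composite element TGATGNAA, each searched on both strands. ACGTG and GCGTG can share bases, as AGGTCA can with the response element, and no matches overlapped in these 4 windows.

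The 4 windows shared none of these motifs throughout. Stc2 held CCAAT with its leftmost base 111 bases before the start and GCGTG at 240 and 231 bases. Igfbp4 held TATAAA at 28 bases, and Igfbp6 held TATAAA at 148 bases and CCAAT at 107 and 50 bases. Igfbp5 held none of the 8, and none of the 4 windows held AGGTCA or GGTCANNNTGACC. Over 32851 mouse windows of the same length, CCAAT was found in 33.8%, GCGTG in 28.2%, TATAAA in 12.4%, GGGCGG in 32.7% and ACGTG in 16.6%. AGGTCA was found in 14.0%, TGATGNAA in 3.45% and GGTCANNNTGACC in 0.0639%. The G and C content was 64.4% for Stc2, 69.2% for Igfbp4, 58.8% for Igfbp5 and 49.6% for Igfbp6, against a median of 52.4% over all windows.

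Igfbp3, the carrier of most IGF in blood, varied from 60.7 to 84.9 CPM over the 18 libraries. It averaged 79.5 ± 0.532 CPM with 16aOHE, 69.3 ± 4.15 CPM with E2 and 75.2 ± 1.44 CPM with vehicle in siCYP1B1 cells. In scrambled cells it averaged 80.5 ± 5.22 CPM with 16aOHE, 76.5 ± 4.96 CPM with E2 and 66.2 ± 6.66 CPM with vehicle. In the order of means, siCYP1B1 vehicle and siCYP1B1 E2 lay apart and the other neighbours overlapped. Igfbp3 passed as higher with siCYP1B1 than with scrambled siRNA in vehicle (0.19, adjusted p = 0.0398), with E2 against vehicle in scrambled cells (0.21, adjusted p = 0.0150) and with 16aOHE against vehicle in scrambled cells (0.28, adjusted p = 0.0112). These 3 comparisons share the scrambled vehicle libraries. It also passed as higher with 16aOHE than with E2 in siCYP1B1 cells (0.20, adjusted p = 0.0323).

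Each Igfbp3 call depended on single libraries. The siRNA call in vehicle was lost without scrambled vehicle 2 or 3 or any 1 of the 3 siCYP1B1 vehicle libraries (adjusted p 0.0710 to 0.216), and with median-of-ratios factors, quantile normalization or no filter (0.0743, 0.0896 and 0.0555). The E2 call was lost without scrambled E2 2 or 3 or scrambled vehicle 2 or 3 (adjusted p 0.0517 to 0.104). The 16aOHE call was lost without scrambled 16aOHE 2 or 3 or scrambled vehicle 2 or 3 (0.0536 to 0.0797), and the call against E2 without siCYP1B1 E2 1 or 2 or any siCYP1B1 16aOHE library (0.0557 to 0.139). The difference between siCYP1B1 and scrambled in E2 was -0.14 (adjusted p = 0.116) and passed only without scrambled E2 1 (-0.19, adjusted p = 0.0473, and 0.0473 to 0.34 over all alternatives).

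Igfbp7, a family member with low affinity for IGFs that is also known as a matrix protein of vessels, had the highest level of the 10 genes per kilobase (218 CPM per kilobase), with 240 to 294 CPM in the 18 libraries. It averaged 256 ± 5.81 CPM with 16aOHE, 270 ± 12.0 CPM with E2 and 242 ± 2.54 CPM with vehicle in siCYP1B1 cells, and 265 ± 18.8, 278 ± 15.1 and 261 ± 13.2 CPM with the same treatments in scrambled cells. The siCYP1B1 vehicle libraries lay below all others, and other neighbours overlapped. Averaged over the arms, the siRNA difference in Igfbp7 was -0.07 (95% interval -0.13 to -0.01, adjusted p = 0.0569), and it passed under 7 of 25 alternatives, among them median-of-ratios factors (adjusted p 0.0167 to 0.142 over the 25). E2 against vehicle passed in siCYP1B1 cells (0.15, adjusted p = 0.0213), where the call was lost without siCYP1B1 E2 1 or 2 or siCYP1B1 vehicle 2 or 3 (adjusted p 0.0562 to 0.105) and with median-of-ratios factors (0.0882). Igfbp7 shares 85 exonic bases with Polr2b on the opposite strand, whose group means were 200 to 217 CPM. The part of Polr2b reads in the Igfbp7 values was not tested.

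Igfbp2, a binding protein gene that lies 5593 bases from Igfbp5 on chromosome 1, was near the detection filter, at 0.503 to 1.80 CPM. It averaged 0.954 ± 0.295 CPM with 16aOHE, 1.11 ± 0.207 CPM with E2 and 0.955 ± 0.462 CPM with vehicle in siCYP1B1 cells. In scrambled cells it averaged 1.43 ± 0.332, 1.64 ± 0.0531 and 1.27 ± 0.414 CPM with the same treatments. All neighbours in this order overlapped. Averaged over the arms, Igfbp2 was lower with siCYP1B1 (-0.29, SE 0.103, adjusted p = 0.0275). The size rests on the pseudocount at this level, and was -0.51 with a pseudocount of 0.1 and -0.10 with one of 5 (adjusted p = 0.0290 and 0.0320). The call was lost with quantile normalization (adjusted p = 0.0853) and without siCYP1B1 16aOHE 1, siCYP1B1 E2 3, siCYP1B1 vehicle 3, scrambled 16aOHE 3 or scrambled vehicle 3 (0.0563 to 0.0680).

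Igf1r, the receptor gene (chromosome 7, 67952257 to 68233667, mm10), passed in no comparison. It ranged from 62.2 to 81.9 CPM, with group means of 77.1 ± 4.26 CPM with 16aOHE, 69.0 ± 5.46 CPM with E2 and 67.2 ± 2.08 CPM with vehicle in siCYP1B1 cells. In scrambled cells its means were 72.7 ± 2.33, 70.3 ± 3.90 and 69.4 ± 6.54 CPM with the same treatments, and all neighbours overlapped. The siRNA difference averaged over the arms was 0.00 (95% interval -0.07 to 0.08, adjusted p = 0.939). The largest of its differences was 16aOHE against vehicle in siCYP1B1 cells (0.20, 95% interval 0.06 to 0.33, adjusted p = 0.0790). 16aOHE against E2 in siCYP1B1 cells was 0.16 (adjusted p = 0.0873) and passed with median-of-ratios factors, with quantile normalization and without siCYP1B1 E2 2 (adjusted p = 0.0419, 0.0454 and 0.0317).

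Per kilobase, the binding protein transcripts were mostly Igfbp7, Igfbp6 and Igfbp4. Of the sum over Igfbp2 to Igfbp7, Igfbp7 made up 54.1%, Igfbp6 25.6%, Igfbp4 12.2% and Igfbp3 7.64% on average over the 18 libraries, while Igfbp2 made up 0.231% and Igfbp5 0.184%. The summed level was 387 CPM per kilobase in siCYP1B1 16aOHE, 371 in siCYP1B1 E2 and 401 in siCYP1B1 vehicle. In the scrambled groups it was 420 CPM per kilobase with 16aOHE, 408 with E2 and 440 with vehicle. Igfbp4 held 9.67% of the sum in siCYP1B1 E2 and 14.3% in scrambled vehicle, while Igfbp7 held 60.6% in siCYP1B1 E2 and 49.5% in scrambled vehicle. Igfbp5 thus made up little of the binding protein RNA in any group.

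**Figure D3:**
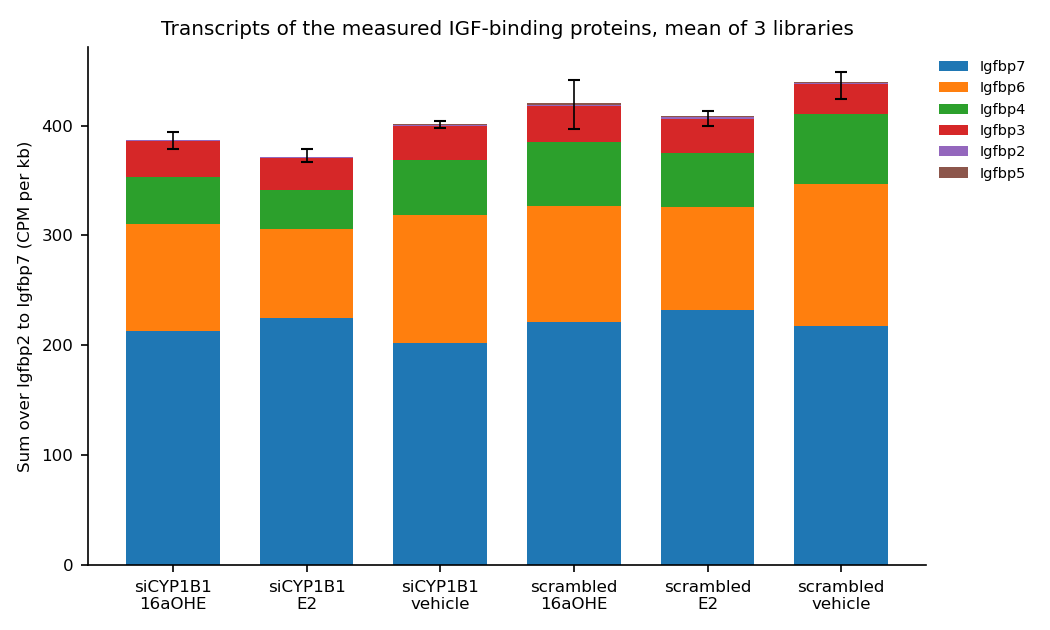
Summed level of Igfbp2 to Igfbp7 in CPM per kilobase of transcript (vertical axis, from 0) in each group, as the mean of 3 libraries, with the lowest and highest library as error bars and each gene's part as a coloured segment. The siCYP1B1 groups stand at 371 to 401 and the scrambled groups at 408 to 440, and Igfbp7 is the largest segment throughout.

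The genes were then counted by comparison against all 11835 genes tested. With siCYP1B1 against scrambled siRNA, 2 of 8 genes open to a test passed in 16aOHE, Stc2 higher and Igfbp4 lower, where 10.4% of all genes passed as higher and 9.31% as lower. In E2, 3 of 7 passed, all lower (Pappa, Igfbp4 and Igfbp6), where 11.4% of all genes passed as higher and 9.80% as lower. In vehicle, 3 of 8 passed, Igfbp3 higher and Igfbp4 and Igfbp5 lower, where 11.5% of all genes passed as higher and 9.12% as lower. Averaged over the arms, 4 of 7 passed, all lower (Pappa, Igfbp2, Igfbp4 and Igfbp6), where 26.5% of all genes passed as higher and 18.2% as lower. The median log2 difference over the 9 genes, including those without a test, was -0.12 in 16aOHE, -0.21 in E2 and -0.15 in vehicle. Over all genes it was 0.01, 0.03 and 0.03 in the same arms. The medians of the 9 genes are a description, since they include values on which the set was chosen (Igfbp5 in 16aOHE and E2, Stc2 in vehicle). The split of all called genes depends on the scaling, and in vehicle 55.7% of them were higher as deposited, against 40.0% with median-of-ratios factors.

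With E2 against vehicle, 4 of 7 genes passed in siCYP1B1 cells, Igfbp7 higher and Pappa, Igfbp4 and Igfbp6 lower, where 16.7% of all genes passed as higher and 10.8% as lower. In scrambled cells 4 of 7 passed, Igfbp3 higher and the same Pappa, Igfbp4 and Igfbp6 lower, where 18.6% of all genes passed as higher and 11.4% as lower. With 16aOHE against vehicle, 2 of 7 passed in siCYP1B1 cells, both lower (Igfbp4 and Igfbp6), where 2.53% of all genes passed as higher and 2.86% as lower. In scrambled cells 3 of 7 passed, Igfbp3 higher and Igfbp4 and Igfbp6 lower, where 1.76% of all genes passed as higher and 2.08% as lower. With 16aOHE against E2, 4 of 8 passed in siCYP1B1 cells, all higher (Pappa, Igfbp3, Igfbp4 and Igfbp6), where 6.59% of all genes passed as higher and 11.8% as lower. In scrambled cells 2 of 7 passed, both higher (Pappa and Igfbp4), where 6.78% of all genes passed as higher and 11.6% as lower. Each siRNA's estrogen comparisons share libraries, so their directions are not separate observations.

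**Figure D4:**
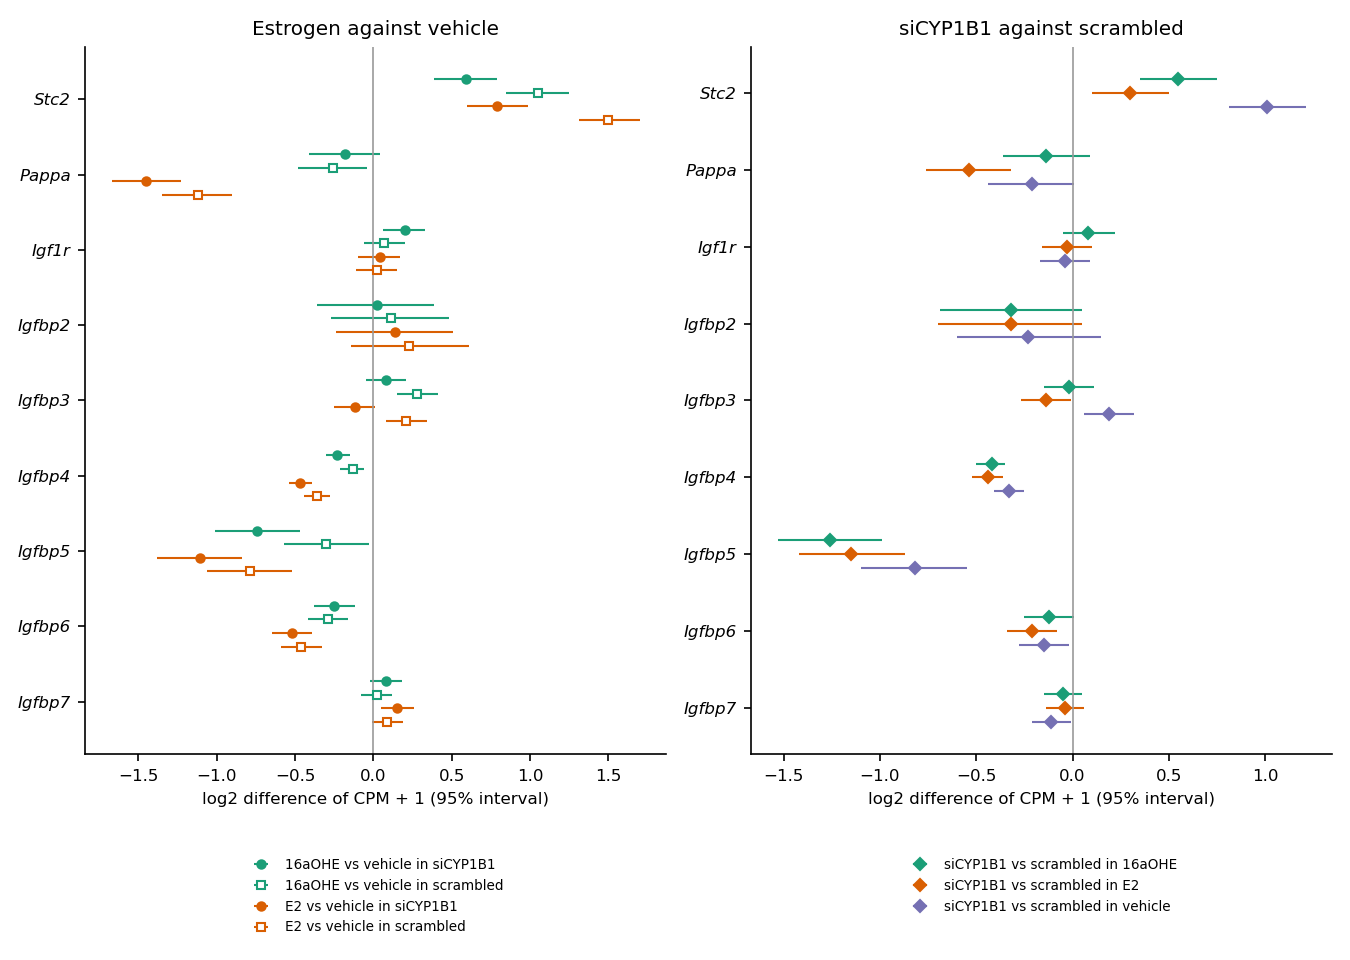
Log2 difference of CPM plus 1 for the 9 tested genes (points) with 95% intervals (lines), for each estrogen against vehicle (left) and for siCYP1B1 against scrambled siRNA under each treatment (right). Points left of 0 are lower with the estrogen or with siCYP1B1. Pappa lies at -1.45 and -1.12 with E2 and at -0.18 and -0.26 with 16aOHE (siCYP1B1 and scrambled cells in that order), Igfbp4 lies below 0 in all 7 comparisons, and values for Stc2 and Igfbp5 are a description except where a test is given in the text.

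Of the 7 members open to a test of an estrogen effect that differs between siCYP1B1 and scrambled cells, 0 passed for either estrogen. The share of all genes that passed, as higher or as lower, was 0%. At an unadjusted p under 0.05, limma gave 470 genes for E2 (3.97% of those tested) and 596 for 16aOHE (5.04%). For 16aOHE, robust moderation gave 2 genes and a fit to its own 4 groups gave 12. For E2, Igfbp3 had a difference of this kind of -0.33 (95% interval -0.51 to -0.14, adjusted p = 0.998), equal in size to that of Pappa.

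Marker sums of several cell types were highest in scrambled vehicle and lowest in siCYP1B1 E2, as the levels of Pappa, Igfbp4, Igfbp5 and Igfbp6 were, and Stc2 was lowest in scrambled vehicle and highest in siCYP1B1 E2. The 7 fibroblast and pericyte markers were all in the table, 2 of them under 1 CPM (Cspg4 and Rgs5). Most of their sum came from the collagen genes Col3a1 and Col1a1. The summed level was 4248 to 4466 CPM in siCYP1B1 16aOHE, 3208 to 3316 in siCYP1B1 E2 and 4849 to 5125 in siCYP1B1 vehicle. In scrambled libraries it was 5353 to 5720 CPM with 16aOHE, 3972 to 4438 with E2 and 6046 to 6369 with vehicle. The 8 mesothelial and epithelial markers (all in the table, with Krt8 and Epcam under 1 CPM) summed to 2375 to 2448 CPM in siCYP1B1 E2 and 3668 to 3751 in scrambled vehicle. The endothelial markers in the table (6 of 9, with Pecam1, Vwf and Tek under 1 CPM and most of the sum from Cd34 and Flt1) summed to 123 to 128 and 230 to 267 CPM in those groups, and the smooth muscle markers (5 of 5, 3 under 1 CPM) to 14.5 to 15.8 and 35.4 to 40.4 CPM. The leukocyte markers (3 of 5) summed to 31.6 to 37.8 CPM over all groups, with Ptprc near 0. The part of cell makeup in the member values was not tested.

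The rest of the IGF axis was read from 5 lists of 55 genes, of which 49 were in the table and 44 were tested. Little ligand RNA was measured. Igf1 averaged 1.09 ± 0.372 CPM and passed in no comparison, Igf2 averaged 0.806 ± 0.224 CPM, and Igfals, which encodes the acid-labile subunit of circulating IGF complexes, averaged 0.0655 CPM (SD, n = 18 libraries). Shares of the 44 genes are given beside the shares of all tested genes. With siCYP1B1 in 16aOHE, 8 (18.2%) passed as higher and 7 (15.9%) as lower, beside 10.4% and 9.31% of all genes. In E2 the siRNA comparison gave 4 (9.09%) and 10 (22.7%), beside 11.4% and 9.80%, and in vehicle 6 (13.6%) and 6 (13.6%), beside 11.5% and 9.12%. Averaged over the arms it gave 11 and 13 of the 44, beside 26.5% and 18.2%. With E2 against vehicle, 9 (20.5%) passed as higher and 9 (20.5%) as lower in siCYP1B1 cells, beside 16.7% and 10.8%, and 12 (27.3%) and 9 (20.5%) in scrambled cells, beside 18.6% and 11.4%. With 16aOHE against vehicle, 4 (9.09%) and 5 (11.4%) passed in siCYP1B1 cells, beside 2.53% and 2.86%, and 3 (6.82%) and 2 (4.55%) in scrambled cells, beside 1.76% and 2.08%. With 16aOHE against E2, 4 (9.09%) and 7 (15.9%) passed in siCYP1B1 cells, beside 6.59% and 11.8%, and 5 (11.4%) and 13 (29.5%) in scrambled cells, beside 6.78% and 11.6%. In these 10 comparisons the median log2 difference over the lists was -0.06 to 0.05, beside -0.04 to 0.04 over all genes. The lists were chosen with earlier results known, and whether these shares differ from those of all genes was not tested.

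Of 11 proteases known to cleave IGF-binding proteins and their inhibitors, 8 were tested. Pappa2, the close relative of Pappa, averaged 0.103 CPM and was not. Adamts1, a secreted metalloprotease, fell with siCYP1B1 to 74.9 ± 2.22 CPM against 93.7 ± 1.10 CPM with scrambled siRNA in 16aOHE (-0.32, adjusted p = 5.09e-05). It also fell with siCYP1B1 in E2 (-0.31, adjusted p = 6.58e-05) and in vehicle (-0.31, adjusted p = 5.64e-05), and fell by 0.82 with E2 in siCYP1B1 cells (adjusted p = 8.36e-11) and in scrambled cells (adjusted p = 5.05e-11). Adam12, a membrane metalloprotease known to cleave IGFBP3 and IGFBP5, rose with siCYP1B1 in 16aOHE (0.48, adjusted p = 0.000470), in E2 (0.52, adjusted p = 0.000174) and in vehicle (0.47, adjusted p = 0.000557). Mmp2 fell in the same 3 comparisons (-0.29, -0.25 and -0.31), and Timp1, an inhibitor of metalloproteases, fell with E2 in siCYP1B1 cells (-0.31, adjusted p = 4.49e-05) and in scrambled cells (-0.36, adjusted p = 7.40e-06).

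Among receptors and signalling genes, Igf2r, whose product clears IGF2, rose with siCYP1B1 in 16aOHE (0.31, adjusted p = 0.00242), in E2 (0.25, adjusted p = 0.00929) and in vehicle (0.32, adjusted p = 0.00178). Insr, the insulin receptor gene, rose with E2 in siCYP1B1 cells to 38.9 ± 1.11 CPM against 29.9 ± 0.706 CPM with vehicle (0.37, adjusted p = 8.09e-05). It also rose with 16aOHE in siCYP1B1 cells (0.25, adjusted p = 0.0116). Its differences in scrambled cells are not given here, so a difference between the siRNAs is not implied. Foxo1, a transcription factor that AKT holds out of the nucleus, rose by 0.36 with E2 in siCYP1B1 cells (adjusted p = 0.00124) and in scrambled cells (adjusted p = 0.00116). Txnip, known as a FOXO and glucose-responsive gene, fell with E2 to 60.6 ± 4.45 CPM against 135 ± 5.55 CPM with vehicle in siCYP1B1 cells (-1.15, adjusted p = 2.75e-09). In scrambled cells Txnip fell to 62.2 ± 3.68 CPM with E2 against 128 ± 14.8 CPM with vehicle (-1.02, adjusted p = 1.27e-08). These FOXO-list genes moved in both directions, 3 higher (33.3%) and 1 lower (11.1%) of 9 with E2 in each siRNA, beside 16.7% higher and 10.8% lower of all genes in siCYP1B1 cells and 18.6% and 11.4% in scrambled cells.

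Over the 18 libraries, the genes most like Igfbp5, Stc2 and Pappa, the 3 members with the widest spans at each pseudocount run (0.1, 1 and 5), were listed by Pearson correlation, as a description over libraries that share their groups. For Igfbp5 these were Dcn (r = 0.975), Tmem98 (0.970), Sema3d (0.964), Crip1 (0.964) and Cyp2s1 (0.964), and Dcn, which encodes the proteoglycan decorin, is also on the fibroblast marker list above. For Stc2 they were Ifi27 (0.957), Jak1 (0.948), Sprr1a (0.939), Tgfbr3 (0.935) and Traf4 (0.926). For Pappa they were Tspan9 (0.971), Scd1 (0.969), Vcl (0.957), Foxo6 (0.953) and Adcyap1r1 (0.953). Adcyap1r1, a neuropeptide receptor gene, had a range of group means close to that of Pappa, with 8.10 CPM in siCYP1B1 E2 and 27.1 CPM in scrambled vehicle.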

How the data were processed

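RNA-seq of 18 mouse libraries in 6 groups was analysed from 1 deposited table of normalized counts. The authors' values are CPM with an offset of 1e-04, with column sums of 1000001.5 to 1000001.6. Per the submitters' processing notes, TopHat2, Partek and mm10 were used (versions, annotation and strandedness not given in the sources used here). Low values were whole multiples of 1 read for 93.9% to 95.1% of values (tolerance 0.1 reads), which gave the depth, and since not all were whole no count test was run. No libraries were identical, and chi-square per gene between libraries of a group was 2.39 to 7.72, where sampling noise gives 1.

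The 11835 genes averaging 1 CPM or more were fitted as log2(CPM + 1) in limma 3.58.1 (R 4.3.3; lmFit, then eBayes with its trend option), with 1 coefficient per group over 18 libraries. Adjusted p-values are Benjamini-Hochberg within each of 12 comparisons, threshold 0.05.

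The members, the lists and the tests were chosen with earlier results of these data known. Named genes were all members, up to 6 called list genes per comparison by size of difference, and the 5 genes most correlated with each of 3 members, leaving out predicted genes. Of the list genes so chosen, part is printed. Alternatives changed the pseudocount, filter, scaling, moderation, groups fitted and libraries.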

Additional observations from a re-analysis of the deposited data

How the results depend on the processing

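No paired analysis was possible because the labels number the libraries without any number shared between groups. Of 31 member calls, 21 held under every alternative run, 10 were lost under at least 1, and none changed sign. Those that held included every call of Pappa, the calls of Stc2 and Igfbp5, and those of Igfbp6 with E2 against vehicle. Of 382 recounts of genes or members called, 360 stayed within 1.5 times.

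With only the groups of a comparison fitted, siCYP1B1 against scrambled in 16aOHE gave 1538 genes, 16aOHE against vehicle in siCYP1B1 gave 365, and the interaction of 16aOHE gave 12, which robust moderation put at 2. This alternative was not run for the averaged comparison, whose groups are all 18 libraries. Without 1 library, siCYP1B1 against scrambled in 16aOHE gave 1538 to 2170 genes (lowest without scrambled 16aOHE 1) and 16aOHE against E2 in siCYP1B1 1446 to 2229 (lowest without siCYP1B1 16aOHE 2). 16aOHE against vehicle gave 306 to 755 genes and 1 to 2 members in siCYP1B1, against 639 and 2 with all libraries (306 without siCYP1B1 16aOHE 2, 316 without siCYP1B1 vehicle 3 and 384 without siCYP1B1 vehicle 2, with 1 member each). In scrambled it gave 248 to 306 genes and 1 to 2 members, against 454 and 3. There the genes fell to 248 without scrambled 16aOHE 1, 285 without scrambled 16aOHE 3, and 282 and 284 without scrambled vehicle 1 and 2, and 1 member was called without scrambled vehicle 2 or 3 or any 1 scrambled 16aOHE library. The interaction of 16aOHE gave 0 to 1 (1 without siCYP1B1 vehicle 3). The cause was not tested.

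Median-of-ratios factors moved the median difference by at most 0.04 in size, and moved the share of called genes that were higher to 40.0% (55.7% as deposited) for siCYP1B1 in vehicle, 40.2% (53.7%) in E2 and 48.6% (59.3%) averaged. For E2 against vehicle it went to 44.4% (60.6%) in siCYP1B1 and 45.3% (62.0%) in scrambled, and for 16aOHE against E2 to 59.3% (35.9%) and 55.7% (36.8%). A filter at 5 CPM left out Igfbp2 and Igfbp5. Depth limits Stc1 and Igfbp2.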
